A study of Phoxinus septimaniae with 18 samples.

Results

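In the livers of 6 minnows, a small group of assembled genes was read at least 3 times higher in 4 fish than in the other 2. The group holds 48 genes, out of 14896 in the liver table and 36271 distinct genes in the 3 tables of the study. Its most abundant gene carries ENSDARP00000050237, the protein hit with the most counts in these livers, called the dominant hit here. Members were chosen from liver levels, given as counts per 1000000 (CPM) of the library total without the transcripts that list the dominant hit first. A gene qualified if no transcript of it had a transmembrane tag and if its lowest level among the livers of reference 1, salt 1, salt 2 and salt 3 was at least 5 CPM. That lowest level also had to be at least 3 times the highest level of reference 2 and reference 3, with this highest level taken as at least 0.1 CPM. Of the 14896 genes, 12719 had no transmembrane tag, 4788 of those reached 5 CPM in the 4 livers, and 48 met the ratio, fewer than the 100 the rule would have kept. Because liver levels chose the members, those levels, and the difference between salt and reference livers that contains them, are given as a description with no test.

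The fish were invasive minnows, Phoxinus septimaniae x P. dragarum, caught in the Llobregat River. The salt station lay beside a potash mine, at 18.1 ppt, and the reference station lay upstream in less saline water; no other treatment, age, sex or reproductive state is given. Brain, gills and liver each gave 3 libraries for each of the 2 stations, 18 in all. Salinity and station coincide and cannot be told apart. Brain and liver libraries carry the same 6 fish codes, with the same replicate numbers. Gill reference 1 has the code of brain and liver reference 1, gill salt 1 that of brain and liver salt 3, and gill salt 3 that of brain and liver salt 1. The other 3 gill libraries have codes found in no brain or liver, so that replicate numbers do not match fish between gills and the other tissues. The series text counts 6 fish, while the codes name 9. Tissue RNA was sequenced in bulk, so that fewer cells of a type and less RNA per cell cannot be told apart.

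The liver of a fish is a secretory organ that releases carrier, clotting and lipid transport proteins into the blood. In females of egg-laying fish it also makes yolk precursor proteins, and in some of these fish egg coat proteins, while the oocytes grow. The identifiers of the transcripts pair their protein accessions with no gene name, so that no member can be placed in any of these roles here. In 35 of the 36 members with a hit, the accessions have the prefix that Ensembl gives to zebrafish proteins. The exception is TRINITY_DN9401_c1_g2, whose 2 hits in the liver table have the prefix HYDMA. The tags held 0 of 74 symbols searched for, which mark liver, egg yolk, blood, pancreas, brain, gill and other cells. The labelled tissues could therefore not be checked by markers.

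Library totals ran from 22183499 to 39881549 counts in liver, from 23678725 to 28731252 in brain and from 15200774 to 24222245 in gills. Outside the transcripts that list the dominant hit first, the liver totals were 19580290, 33034278 and 31009584 in reference 1, 2 and 3, and 23562381, 12741834 and 19513591 in salt 1, 2 and 3. The gill library labelled salt 3 did not match its fish code. The shares of transcripts within genes in it were correlated with those in the brain and liver of its own code at r = -0.0686 and -0.0817 across 10588 transcripts. With the brain, liver and gills of reference 1 the values were 0.636, 0.570 and 0.669, and 10 other pairs of the same code in different tissues gave 0.530 to 0.786. Counts of calls in gills, and the fold changes of members named there, are therefore also given without that library. Among livers, reference 1 stood with the salt livers for every member by construction of the rule.

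The members carried few distinct protein hits, and the most abundant ones shared them. The 48 genes comprised 96 transcripts and listed 20 hits, while 12 members listed no hit. Hits listed by more than 1 member, or listed together with such a hit in the same gene, numbered 13 and were carried by 30 members. None of the 13 hits was listed by any transcript of the brain table (0) or of the gill table (0), and they are called liver-only hits here. The name refers to listing only, since the tables hold only transcripts that reached 1 CPM in at least 2 libraries of a tissue. The share of other liver hits missing from both tables is not given. The 13 hits formed 4 groups. The largest joined 9 hits, the dominant hit among them, in 23 genes. The others were ENSDARP00000023158 with ENSDARP00000128406 in 2 genes, ENSDARP00000072738 in 3 genes and ENSDARP00000096034 in 2 genes. Of the other 18 members, 6 listed a hit that no other member listed and 12 listed none. Members with a common hit are not independent of each other: pieces of 1 messenger RNA, alleles and near-identical copies can be assembled as separate genes, and reads shared between them can be split in an uncertain way. The identifiers of the 48 members held 42 different numbers after the prefix TRINITY_DN, and 6 of these numbers were shared by 2 members each.

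Together the members took a large part of all counts in the 4 livers. Their share of all liver counts was 45.4% in reference 1, 65.1% in salt 1, 68.0% in salt 2 and 53.0% in salt 3. In reference 2 they had 1904 counts, 0.00576% of the total (95% Wilson interval 0.00551 to 0.00603). In reference 3 they had 2547 counts, 0.00821% (0.00790 to 0.00854). The 30 members with a liver-only hit made up nearly all of the high shares, with 45.0%, 64.7%, 67.5% and 52.3% in reference 1, salt 1, salt 2 and salt 3. The same 30 genes had 96 counts in reference 2 and 99 counts in reference 3. The 18 other members took 0.395%, 0.402%, 0.558% and 0.657% in the 4 livers and held most of the few counts in the 2 low livers, 1808 and 2448. These intervals cover counting error only, since a read carried no molecular identifier and several reads can stem from 1 molecule.

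**Figure D1:**
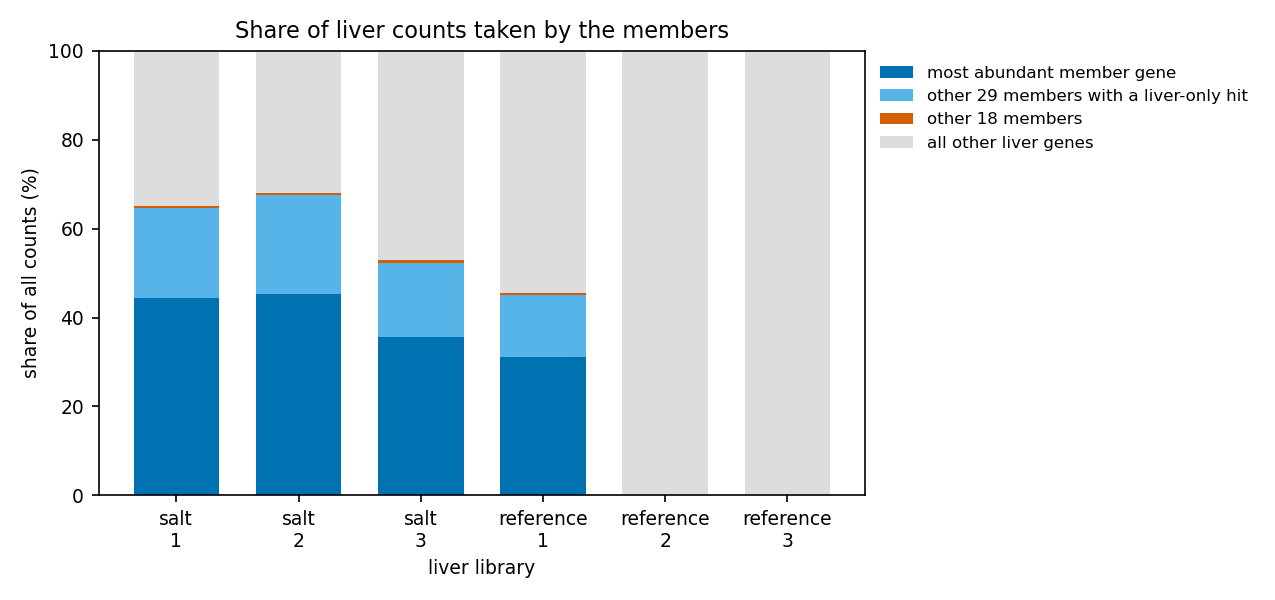
Share of all liver counts (%, vertical axis) taken by the most abundant member, the other 29 members with a liver-only hit, the other 18 members and all other liver genes, in each of the 6 liver libraries. Members take 45.4% to 68.0% in 4 livers and are too few to be seen in reference 2 and reference 3.

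Within the liver-only hits the make-up was close among the 4 livers. Transcripts that list the dominant hit first took 64.2% of the counts of these 30 genes in reference 1, 63.3% in salt 1, 63.0% in salt 2 and 63.5% in salt 3. ENSDARP00000072693 took 8.95%, 9.34%, 9.96% and 8.47% of them in the same order. ENSDARP00000072738 took 5.88%, 6.74%, 6.92% and 6.19%. The same 3 hits also led in reference 2, at 50, 11 and 13 of 96 counts, whereas in reference 3 the dominant hit with 50 of 99 counts was followed by ENSDARP00000101309 with 16. The dominant hit was a smaller part of the few counts in the low livers, 52.1% in reference 2 (Wilson interval 42.2 to 61.8) and 50.5% in reference 3 (40.8 to 60.2), than of those in the other 4. Among the 9 hits that took at least 1% in each of the 4 livers, ENSDARP00000101309 varied most, at 3.07%, 6.56%, 3.52% and 4.74% in reference 1, salt 1, salt 2 and salt 3, and was 16.2% in reference 3 (10.2 to 24.7).

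Taking the lowest of the 4 livers as a member's level, members ran from 5.64 to 436726 CPM, with a median of 55.5 CPM. By this level 11 members lay from 5 to 10 CPM, 16 from 10 to 100, 3 from 100 to 1000, 13 from 1000 to 10000 and 5 above 10000. Levels of different genes here are not divided by transcript length, so their order is one of counts, not of molecules. Members filled 5 of the 10 most abundant genes in reference 1, 7 in salt 1, 7 in salt 2 and 6 in salt 3.

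**Figure D2:**
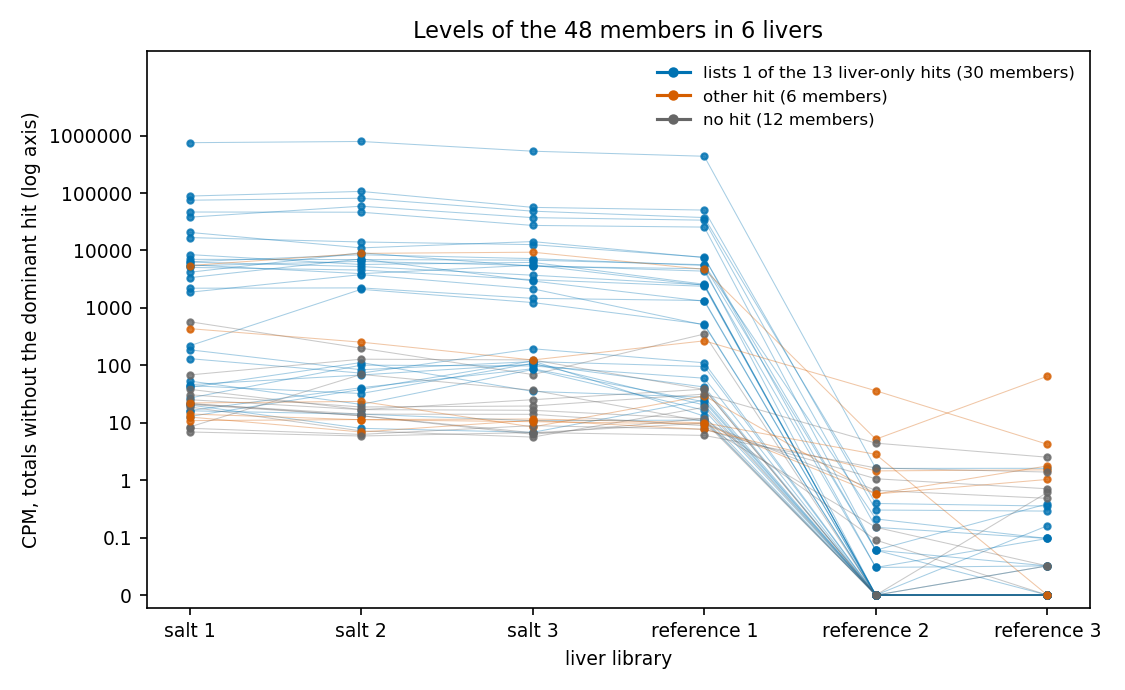
Level of each of the 48 members (CPM on totals without the dominant hit, log axis with 0 drawn at the bottom) in the 6 liver libraries, with 1 line per member, coloured by whether it lists a liver-only hit, another hit or none. All members lie at 5 CPM or more in salt 1, salt 2, salt 3 and reference 1, and 22 lie at 0 in both reference 2 and reference 3.

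The most abundant member was TRINITY_DN2838_c0_g1, which lists the dominant hit and 2 others over 8 transcripts. It was at 436726 CPM in reference 1, 752667 in salt 1, 789902 in salt 2 and 534765 in salt 3, where its own dominant-hit counts stand outside the total used. In reference 2 and reference 3 it was at 1.60 and 1.61 CPM, from 53 and 50 counts. Its lowest high liver was 270854 times its highest low liver, the largest ratio of all members. The member next in ratio, TRINITY_DN3010_c1_g1, lists ENSDARP00000023158 and ENSDARP00000128406 and was at 25525, 46726, 46362 and 27286 CPM in reference 1, salt 1, salt 2 and salt 3. It had 2 counts in reference 2 and 1 in reference 3, and its ratio, set by the floor of 0.1 CPM, was 255246. The member next in level, TRINITY_DN1043_c8_g1, lists ENSDARP00000072693 and was at 50487, 88558, 106688 and 56265 CPM in the 4 livers. It was at 0.303 CPM in reference 2 and 0.290 CPM in reference 3. For each of these 3 genes, and for all but 1 of the 18 members above 1000 CPM, reference 1 was the lowest of the 4 livers.

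Counts of exactly 0 in both low livers were found for 22 members, 18 of them with a liver-only hit. With 3 counts per library as the most a count of 0 allows, their lowest high liver was at least 58.3-fold to at least 26675-fold above the low livers. The largest of these bounds belonged to TRINITY_DN7723_c14_g1, which lists ENSDARP00000114558 and was at 2581, 8478, 5700 and 6198 CPM in reference 1, salt 1, salt 2 and salt 3. The other 26 members had counts in at least 1 low liver.

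At the other end of the list, members stood close to the threshold of the rule. The smallest ratios inside it were 3.56 for TRINITY_DN330904_c0_g1 and 3.43 for TRINITY_DN11425_c0_g1, and the 2 genes next outside had 2.77 and 2.75. TRINITY_DN11425_c0_g1, with hit ENSDARP00000099057, was at 267, 436, 253 and 124 CPM in reference 1, salt 1, salt 2 and salt 3. It was still at 36.1 CPM in reference 2 and at 4.23 CPM in reference 3. TRINITY_DN330904_c0_g1, with hit ENSDARP00000065599, was level across the 4 livers, at 10.01, 10.9, 11.4 and 11.6 CPM in the same order. It was at 2.82 CPM in reference 2 and at 0 in reference 3. The lowest levels inside the rule were 5.64 and 5.89 CPM, and the highest outside it among genes that met the ratio were 4.97 and 4.92 CPM.

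**Figure D3:**
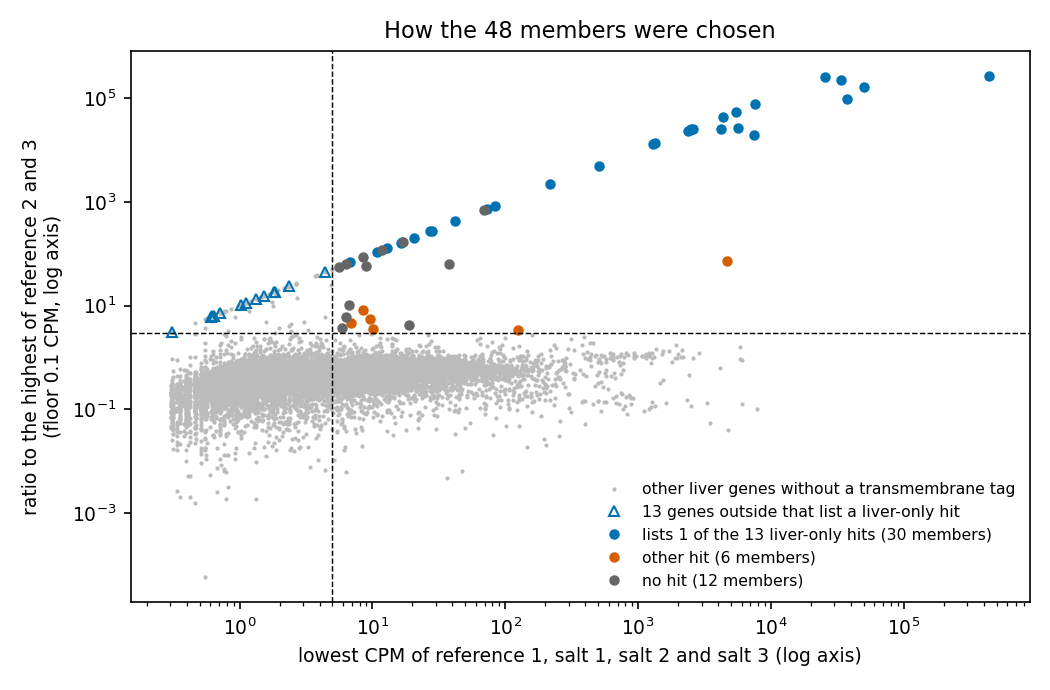
Lowest CPM of reference 1, salt 1, salt 2 and salt 3 (horizontal log axis) against its ratio to the highest of reference 2 and reference 3 (vertical log axis, floor 0.1 CPM) for liver genes without a transmembrane tag, with dashed lines at 5 CPM and at a ratio of 3. The 48 members fill the upper right, and the 13 open triangles are genes outside the rule that list a liver-only hit, all with a ratio of 3 or more.

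Some genes outside the members also listed liver-only hits. Of the liver genes, 43 listed 1 of the 13 hits, and the 13 that were not members were all left out for a level under 5 CPM. All 13 had a ratio of at least 3, 12 had 0 counts in both low livers, and the other had 1 count. The hits were taken from members chosen on this split, and some of these genes share the number after TRINITY_DN with a member. With the floor of 0.1 CPM a low level can meet the ratio, as in TRINITY_DN99645_c0_g1, with 3.075 at 0.3075 CPM. The share of other liver genes under 5 CPM that met it is not given, so nothing is read from these counts. An example of the 13 is TRINITY_DN18332_c1_g1, at 229 CPM in reference 1, 57.9 in salt 1, 2281 in salt 2 and 1.85 in salt 3. It had 0 counts in reference 2 and 1 count in reference 3, and its levels in the 4 high livers were far apart.

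Among the members outside the liver-only hits, TRINITY_DN1679_c0_g1 was by far the most abundant. It lists ENSDARP00000069198 and carries a signal peptide tag (sigP). The tag does not set this gene apart, since 82.9% of the 4788 liver genes with the same level and no transmembrane tag carried it. How the tag was assigned was not checked, and with so large a share it is not read here as a sign of secretion. TRINITY_DN1679_c0_g1 was at 4686 CPM in reference 1, 5463 in salt 1, 8895 in salt 2 and 9331 in salt 3. In reference 2 it was at 5.18 CPM and in reference 3 at 64.6 CPM, so that the 2 low livers differed from each other more than the 4 high ones did. TRINITY_DN311_c0_g1 lists no hit and was at 38.5, 38.2, 17.0 and 25.2 CPM in reference 1, salt 1, salt 2 and salt 3, and at 0 in both low livers.

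The order of the 4 high livers was not used by the rule beyond their lowest value. Reference 1 was the lowest of the 4 in 27 of 48 members (56.3%), against 18.6% of the 4788 liver genes that met the same level without a transmembrane tag. It was the highest in 4 members (8.33%), against 45.1% of those genes. Most of this came from abundant members: reference 1 was lowest in 17 of the 18 members above 1000 CPM and in 10 of the 30 below. The ratio of reference 1 to the median of the 3 salt livers had a median of 0.653 over the members (range 0.234 to 3.11) and 1.17 over the 4788 genes. Reference 1 lay within the range of the salt livers in 17 members (35.4%), close to the 36.3% of those genes. The count of 27 depends on the total used: it was 20 (background 9.59%) with the dominant hit in the total and 35 (33.4%) without all members in it. With 1 reference liver, these are values of that liver and carry no test.

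Members varied more between the 4 high livers than liver genes did in general. The highest of the 4 was a median 2.34 times the lowest over the members (range 1.16 to 9.63) and 1.73 times over the 4788 genes. It was less than 2 times the lowest in 15 of 48 members (31.3%), against 65.2% of those genes. The spread differed with level: its median was 2.12 over the 18 members of at least 1000 CPM and 3.36 over the 30 below. The 4788 genes share the minimum level only and were not matched to the members by level. The widest spread was that of TRINITY_DN102366_c0_g1, which lists the dominant hit and was at 518, 219, 2106 and 1240 CPM in reference 1, salt 1, salt 2 and salt 3. The member that followed the dominant hit most closely over the 4 livers, apart from TRINITY_DN2838_c0_g1, which holds most of it, was TRINITY_DN261297_c1_g1, with hit ENSDARP00000072693. It was at 1345, 2203, 2230 and 1467 CPM, and its ratio to the dominant hit had a coefficient of variation of 5.19%. TRINITY_DN19898_c1_g1 came next with 8.37%. This measure of likeness over 4 livers was chosen after the values were seen, because the dominant hit was listed in no brain or gill transcript.

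The assembled transcripts of a member were not used in fixed proportion by all fish. TRINITY_DN2838_c0_g1 had transcript i4 as its most counted form in reference 1, salt 1 and salt 3, with 27.3%, 30.6% and 35.3% of the gene's counts, and in salt 2 this form took 12.3%. In salt 2 form i2 led with 29.8%. Form i9 took 23.0% of the counts in salt 2, 5.52% in reference 1 and 2.21% in salt 3, but 0.00812% in salt 1. Form i14 was steady, from 20.0% to 26.2%. Over the 23 members with several transcripts, the same transcript led in all 4 livers in 13 (56.5%), against 49.5% of 3585 liver genes of the same kind. Assembled forms may be alleles, splice forms or copies, and which of these they are was not tested.

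**Figure D4:**
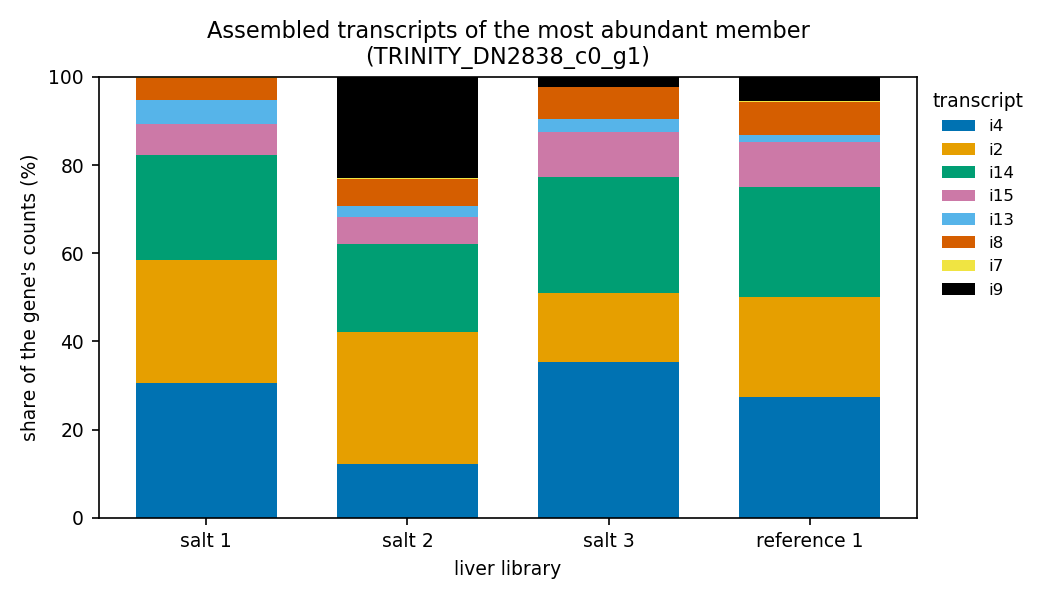
Share of the counts of TRINITY_DN2838_c0_g1 (%, vertical axis) held by each of its 8 assembled transcripts in the livers of salt 1, salt 2, salt 3 and reference 1. Form i9 takes 23.0% in salt 2 and 0.00812% in salt 1, and form i14 lies between 20.0% and 26.2% in all 4.

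The identifiers showed what else the members shared. A signal peptide tag was carried by 22 of 48 members (45.8%), against 82.9% of the 4788 liver genes with the same level and no transmembrane tag. A protein hit was listed by 36 members (75.0%), against 87.0%, and several transcripts by 23 members (47.9%), against 74.9%. Each of these 3 shares lay below that of the background. They are shares of genes, not of counts: all 5 members above 10000 CPM carried the signal peptide tag. By kind of hit, the tag was on 15 of 30 members with a liver-only hit, 5 of 6 with another hit and 2 of 12 with none. The members were also mostly missing from the other tables: 34 members (70.8%) were listed in neither the brain nor the gill table, against 5.14% of the background. These 34 were all 30 members with a liver-only hit and 4 with no hit. The tables list only transcripts that reached 1 CPM in at least 2 libraries of a tissue, so a gene outside a table may still have been read at a low level.

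In brain, the comparison of stations used libraries that played no part in the choice of members, but their fish codes are those of the livers. The rule placed all 3 salt livers on the high side, so the brain values of members are not independent of that choice. Of 14 members listed in the brain table, edgeR called 0 at an adjusted p under 0.05, as it called 0 of all 26930 brain genes tested (0%). At an unadjusted p under 0.05 it had 1 of 14 members, against 1726 genes, 6.41% of those tested. DESeq2 called 352 genes (1.31%) and 0 members. The log2 fold change of salt over reference was positive in 12 of 14 members, against 50.2% of all brain genes tested. Its median was 0.54 over the members and 0.00 over all these genes. Without single brains it was positive in 10 to 12 members, fewest without reference 3. All 3 salt brains lay above all 3 reference brains in 5 members (background 6.73% of genes) and below them in 1 (5.96%).

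The member with the smallest unadjusted p in brain was lower in salt fish. TRINITY_DN4488_c0_g2, which lists no hit, was at 8.21, 6.14 and 10.3 CPM in reference brains 1, 2 and 3. It was at 5.01, 3.84 and 3.97 CPM in salt brains 1, 2 and 3, and the groups did not overlap. The log2 fold change of salt over reference came to -0.94 (SE 0.24). By edgeR the unadjusted p was 0.00757 and the adjusted p 0.648. In liver the same gene was at 9.86 CPM in reference 1 and at 20.8, 13.3 and 6.71 CPM in salt 1, 2 and 3. The other member with a negative value, TRINITY_DN1919_c7_g1 with hit ENSDARP00000101526, had -0.26 (SE 0.63; adjusted p 0.959 by edgeR). That value turned to 0.20 without salt 3, in which the gene was at 0.900 CPM against 3.34 to 5.95 CPM in the other brains. The liver of that fish, at 8.46 CPM, was also the lowest of the 4 high livers for this gene.

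Among members higher in salt brains, those with the smallest unadjusted p were read at low levels. TRINITY_DN642_c0_g2, with no hit, averaged 1.46 ± 0.312 CPM over the reference brains and 2.50 ± 0.461 CPM over the salt brains (SD, n = 3). The log2 fold change came to 0.76 (SE 0.35), at an adjusted p of 0.792 by edgeR. TRINITY_DN25241_c1_g3, with no hit, averaged 1.28 ± 0.337 and 2.11 ± 0.338 CPM, and came to 0.72 (SE 0.34) at an adjusted p of 0.793 by edgeR. In both genes the lowest salt brain lay above the highest reference brain, from between 22 and 70 counts per library. Neither difference passed the adjusted threshold.

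The members with the highest brain levels had overlapping or nearly overlapping groups. TRINITY_DN11425_c0_g1 was at 83.1, 88.6 and 35.4 CPM in reference brains 1, 2 and 3 and at 199, 79.2 and 105 CPM in salt brains 1, 2 and 3. Salt 2 lay below reference 1 and 2, and the log2 fold change came to 0.85 (SE 0.47), at an adjusted p of 0.824 by edgeR. It was 0.41 without salt 1, the highest brain, and 0.53 without reference 3, the lowest. TRINITY_DN9207_c0_g1, with hit ENSDARP00000089195, was at 53.1, 59.7 and 40.9 CPM in the reference brains and at 60.7, 77.5 and 60.2 CPM in the salt brains. The lowest salt brain, at 60.2 CPM, lay just above the highest reference brain, and the log2 fold change came to 0.35 (SE 0.22), at an adjusted p of 0.837 by edgeR. It was 0.20 without reference 3, 0.20 without salt 2 and 0.53 without reference 2.

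The split of fish seen in liver was also counted among the brains. All 4 brains of the fish with high livers lay above both brains of the other 2 fish in 2 of 14 members (14.3%), against 8.02% of all 27606 brain genes. The split was chosen on liver values, and these shares are a description. The count depends on single brains: it was 7 without reference 1 (background 12.4%), 8 without reference 2 (21.7%), 5 without reference 3 (24.7%) and 5 without salt 2 (11.5%). The 2 members were TRINITY_DN311_c0_g1 and TRINITY_DN1679_c0_g1. TRINITY_DN311_c0_g1 was at 34.7 CPM in the brain of reference 1 and at 30.04, 44.0 and 39.4 CPM in those of salt 1, 2 and 3. It had 0 counts in the brains of reference 2 and 3, as in their livers. TRINITY_DN1679_c0_g1 was at 12.9 CPM in the brain of reference 1, 7.87, 15.5 and 29.3 CPM in salt 1, 2 and 3, and 6.18 and 3.93 CPM in reference 2 and 3. Its gap in brain was small beside that in liver.

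**Figure D5:**
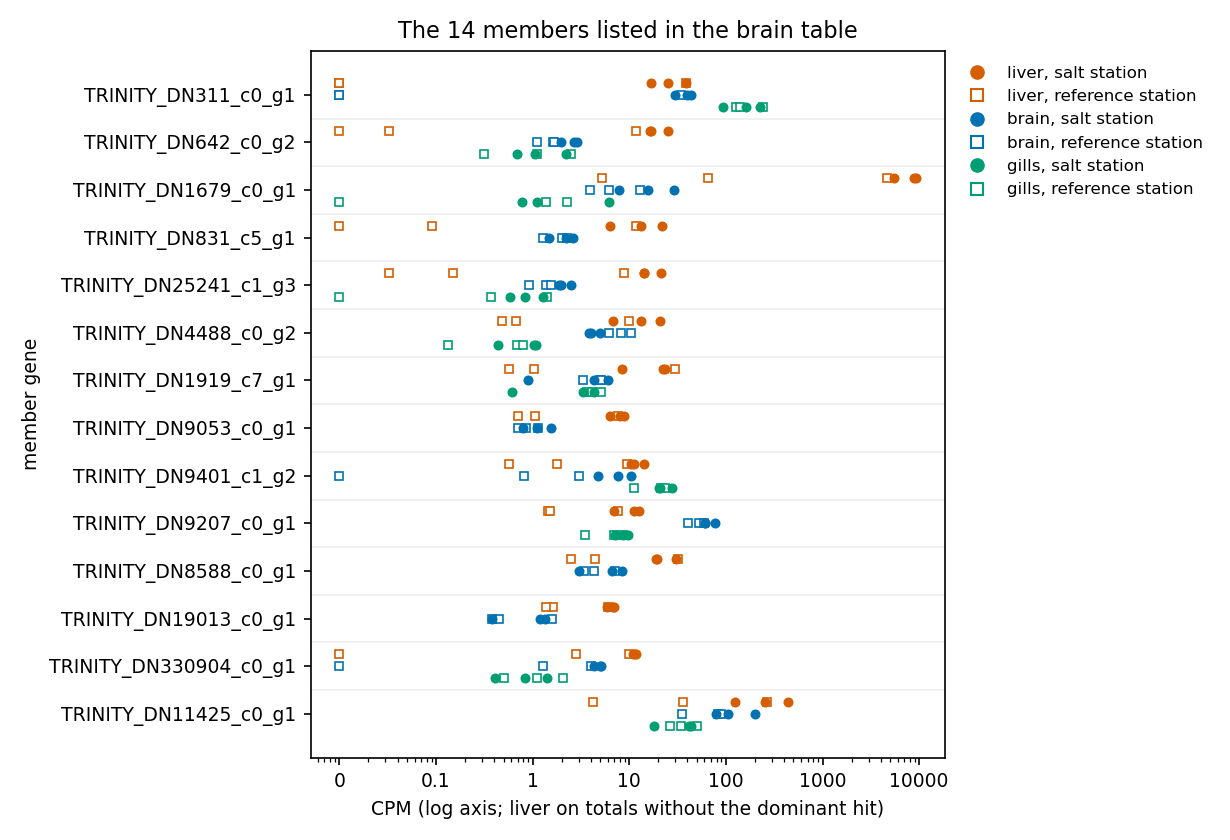
Level in CPM (horizontal log axis with 0 drawn at the left) of the 14 members listed in the brain table, in each liver, brain and gill library, with filled circles for the salt and open squares for the reference station. Only TRINITY_DN311_c0_g1 has 0 counts in reference 2 and 3 in both liver and brain, and 4 of the 14 members have no gill values because the gill table does not list them.

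TRINITY_DN311_c0_g1 also differed between fish in its transcripts. Form i13 had 508 counts in the brain of reference 1 and 468, 484 and 505 in those of salt 1, 2 and 3. Form i16 was read only in reference 1 and salt 1, with 429 and 395 counts, and form i14 only in salt 2 and salt 3, with 557 and 458 counts. The livers of the same fish showed the same division of i14 and i16. The pattern of 0 counts in reference 2 and 3 with at least 5 CPM in the other 4 codes was met by 22 liver genes and 6 brain genes. All 22 liver genes are members by construction, since this pattern meets the rule in any gene without a transmembrane tag. TRINITY_DN311_c0_g1 was the only gene to meet it in both, among 12419 genes listed in both tables. The opposite pattern was met by 2 liver genes and 3 brain genes, and by 0 in both. In gills the gene was read in every library, at 127, 243 and 139 CPM in reference 1, 2 and 3 and at 93.4, 227 and 160 CPM in salt 1, 2 and 3. All of these exceeded every brain level. No gill library carries the codes of the 2 fish with 0 counts in liver and brain.

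In gills the members showed no difference between stations that passed a test. Of 10 members listed, edgeR called 0 at an adjusted p under 0.05, as of all 22958 genes tested (0%), and DESeq2 called 0 (0%). At an unadjusted p under 0.05 edgeR had 0 members, against 241 genes (1.05%). The log2 fold change was positive in 5 members and negative in 5, against 52.4% positive over all gill genes tested. Its median was 0.11 over the members and 0.03 over all these genes. Without the library labelled salt 3, edgeR again called 0 genes and had 0 members at an unadjusted p under 0.05, against 774 genes (3.22%). All salt gills lay above all reference gills in 0 members (background 3.86%) and below them in 0 (1.95%). TRINITY_DN311_c0_g1 came to a log2 fold change of -0.18 (SE 0.41) and TRINITY_DN11425_c0_g1, the member with the next highest gill level, to -0.14 (SE 0.41), both at an adjusted p of 1.00 by edgeR. TRINITY_DN11425_c0_g1 was at 34.5, 26.2 and 50.3 CPM in reference gills 1, 2 and 3 and at 43.5, 18.2 and 41.9 CPM in salt gills. The groups overlapped in both genes. The value of the former turned positive without reference 2 or salt 1, and that of the latter without reference 3 or salt 2. Without the library labelled salt 3 the values were -0.17 and -0.28.

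In the 4 gill members with the smallest unadjusted p, 2 per direction, the stations also overlapped. TRINITY_DN9401_c1_g2 was at 21.4, 11.3 and 23.6 CPM in the reference gills and at 27.7, 20.5 and 21.0 CPM in the salt gills. It came to 0.26 (SE 0.34), at an adjusted p of 1.00 by edgeR, and to 0.0049 without reference 2 and 0.061 without salt 1. TRINITY_DN9207_c0_g1 was at 8.69, 6.97 and 3.48 CPM in the reference gills and at 9.74, 7.06 and 8.63 CPM in the salt gills, and came to 0.33 (SE 0.47). Its value was 0.016 without reference 3, 0.19 without salt 1 and 0.63 without reference 1. TRINITY_DN1919_c7_g1 came to -0.74 (SE 0.72) and TRINITY_DN330904_c0_g1 to -0.55 (SE 0.85), and the latter turned to 0.082 without reference 2. The adjusted p of these genes by edgeR was also 1.00. Without the library labelled salt 3, TRINITY_DN9401_c1_g2 and TRINITY_DN9207_c0_g1 each came to 0.33, TRINITY_DN1919_c7_g1 to -0.89 and TRINITY_DN330904_c0_g1 to -0.21. TRINITY_DN1919_c7_g1 was low in salt 1 alone, at 0.609 CPM against 3.30 to 5.14 CPM in the other gills, and came to -0.28 without it. Gill salt 1 has the fish code of brain and liver salt 3, the low brain and the lowest high liver for this gene, so that the 3 low values carry 1 fish code.

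Set across tissues, the members found outside liver were of mixed kind. The 3 tables were counted separately, and liver CPM here leave the dominant hit out of the total. Of the 14 members listed in brain, all 4 high livers lay above every brain in 9, against 15.7% of 4458 liver genes of the same level and no transmembrane tag. Of the 10 listed in gills they lay above every gill library in 7, against 6.90% of 4476 genes. Of 10 members listed in all 3 tissues, 5 had all 4 high livers above every brain and gill library, against 4.21% of 4392 genes. The members were chosen for high levels in these 4 livers, so nothing is read from these shares. TRINITY_DN1679_c0_g1 showed the widest gap, with 4686 to 9331 CPM in the high livers, 3.93 to 29.3 CPM in brains and 0 to 6.19 CPM in gills. TRINITY_DN9207_c0_g1 was instead highest in brain, at 40.9 to 77.5 CPM, against 6.91 to 12.6 CPM in the high livers. TRINITY_DN9401_c1_g2 was above every brain in gills, at 11.3 to 27.7 CPM. Taken as a share of all counts, the members together held 0.0107% to 0.0338% in brains and 0.0179% to 0.0297% in gills.

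The comparison of salt with reference livers overlaps the rule, and no calls or p-values of members are given from it. Over all liver genes, edgeR called 0 of 14343 (0%), with 916 (6.39%) at an unadjusted p under 0.05, and DESeq2 called 207 (1.46%).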

How the data were processed

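The authors deposited 1 table per tissue, of unnormalized whole-number counts for 62498 transcripts (brain), 55872 (gills) and 31568 (liver). The authors assembled transcripts de novo, per the series text, and the submitters' processing notes name Trimmomatic and DESeq2. What aligned and counted the reads is not given in the sources used here. Each transcript reached 1 CPM in at least 2 libraries of its tissue, as checked on the counts. Libraries were assigned by title and columns by library code, and no per-sample column was left out.

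Counts were summed per Trinity gene. Each tissue was fitted whole with edgeR 4.0.16 in R 4.3.3 (filterByExpr, TMM, two-sided quasi-likelihood F test, Benjamini-Hochberg adjustment over all genes, threshold 0.05), with DESeq2 1.42.0 as an alternative. The fits were also run on simulated counts, with a single mean level per gene before station differences were added. These counts lacked the split among the livers, and nothing is read from that run here. CPM values in brain and gills use library totals. The standard error is the log2 fold change divided by the square root of F. Intervals of shares are 95% Wilson intervals, and a 0 is bounded by 3 counts per library. With 3 libraries per group, p-values measure the spread between fish as labelled.

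The members and all lists were chosen with earlier results of these data known. Named members were the 2 with the largest ratio, the highest level, the highest mean in brain and in gills, the smallest unadjusted p per direction and tissue and the smallest ratio. TRINITY_DN7723_c14_g1, TRINITY_DN18332_c1_g1, TRINITY_DN1679_c0_g1, TRINITY_DN102366_c0_g1, TRINITY_DN261297_c1_g1 and TRINITY_DN19898_c1_g1 were named after their values were seen. Alternatives were other normalizations, filters, denominators and thresholds, counts per transcript, a replicate block and leaving out each library.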

Additional observations from a re-analysis of the deposited data

How the results depend on the processing

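The rule kept 100 genes, its limit, with counts per transcript (43 of the 48 genes shared) and 80 with all members left out of the totals. Without each liver library in turn it kept 56 to 90 genes, highest without reference 3. Each of these lists held all 48 by construction, since leaving out a liver can only loosen the rule. It kept 37 to 58 with other totals, TMM factors, another floor, a level of 10 CPM or transmembrane genes. edgeR called 0 genes under every alternative in gills and brain, while DESeq2 called 352 in brain and 207 in liver. Without single livers edgeR called 0 to 22 liver genes, 22 without reference 1, a fit that sets the same livers against each other as the rule does, and 1 without reference 3. Members at an unadjusted p under 0.05 in brain, 1 in the report, were 2 of 14 with DESeq2, against 8.51% of all genes tested. Without single libraries they were 1 to 3, against 4.12% to 9.85% of genes. With counts per transcript, 2 of 19 member transcripts reached it in brain, against 3.63% of all transcripts tested. In gills 1 of 16 member transcripts did, against 0.78%. The 4-against-2 split of brains was met by 2 to 8 members without single libraries, 8 without reference 2 (background 21.7%). Reference 1 was lowest of the high livers in 20 to 35 members over the totals tried.

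The replicate numbers did not pair the samples: same-numbered libraries deviated from their group means with r from -0.36 to 0.16 across genes. With the replicate number as a block, edgeR called 0 genes in all 3 tissues. An unadjusted p under 0.05 was then reached by 2 members in brain (5.21% of all genes tested) and 0 in gills (1.20%). Some fold changes turned when 1 library was left out. In gills TRINITY_DN11425_c0_g1 came to 0.092 without reference 3 and 0.18 without salt 2 (range -0.38 to 0.18). TRINITY_DN311_c0_g1 came to 0.21 without reference 2 and 0.077 without salt 1 (-0.48 to 0.21), and TRINITY_DN330904_c0_g1 to 0.082 without reference 2 (-1.01 to 0.082). In brain TRINITY_DN1919_c7_g1 came to 0.20 without salt 3 (-0.73 to 0.20). The cause was not tested. Without scaling factors the median log2 fold change of all liver genes moved from -0.09 to -0.98.

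Depth limits what the low livers show: a count of 0 there bounds reads, not molecules, and most liver-only hits rest on fewer than 20 counts in them. With 3 libraries per group, leaving out reference 1 moved the liver calls from 0 to 22.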

Other observations

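Genes with a transmembrane tag were outside the rule, and 4 of them met the rest of it. TRINITY_DN1265_c0_g1 was at 904 CPM in the liver of reference 1 and at 1192, 1044 and 1467 CPM in salt 1, 2 and 3, against 16.5 and 49.0 CPM in reference 2 and 3. TRINITY_DN6490_c1_g1 was at 2522, 3939, 2664 and 4583 CPM in the same 4 livers, and at 794 and 570 CPM in reference 2 and 3. The ratios of the 4 ran from 3.18 to 20.3. The opposite pattern, with both of reference 2 and 3 at 5 CPM or more and at least 3 times the highest of the other 4 livers, was met by 80 genes without a transmembrane tag. The totals used still hold the member counts outside the dominant hit, which are large in the 4 high livers only. They lower the CPM of other genes there, and the count of 80 is not given for other totals. TRINITY_DN1265_c0_g1 and TRINITY_DN6490_c1_g1 were named after their values were seen. The values given here carry no test, since the division of the livers was chosen from liver values.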
